A study of Mus musculus with 12 samples.

Results

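Transcripts of 8 genes of cholesterol synthesis and efflux were followed in tumour-associated macrophages (TAMs) of mice given picrotoxin or its solvent, DMSO. The 8 genes, Hmgcs1, Sqle, Idi1, Fdps, Lss, Insig1, Abca1 and Abcg1, were taken by name from the 24781 rows of the table, and each was found once. All 8 passed the filter on low values, which left 9580 genes of the table for testing. No gene of lipoprotein uptake is among the 8, so uptake is described with the wider lists below. Picrotoxin is an antagonist of the ionotropic GABA type A receptor, and the comparison asks how the transcripts of these macrophages differ when that receptor is blocked in the animal.

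All mice were wild type, of a C57BL/6 background, and in both groups cells of MC38, a colon adenocarcinoma line from mouse, had been injected intradermally. The picrotoxin group received 40 µg per intraperitoneal injection, starting the day before inoculation and continuing every other day, and the DMSO group received solvent on the same schedule. On day 7, 100 CD45+CD11b+F4/80high cells were sorted for each library, with 6 libraries in each group, numbered 1 to 6. The labels call the replicates separate library preparations. The methods of the study give 1 library per mouse, while its figure text gives fewer mice than libraries for this comparison. The labels do not say which libraries would share a mouse. The p-values therefore measure the spread between libraries and would be too small if libraries shared a mouse. Mice of both sexes, 2 to 5 months old, were used across the study, and the ages in each group were not given in the sources used here.

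Cells make cholesterol from acetyl-CoA through the mevalonate pathway, a long series of enzymes whose genes are switched on together by the transcription factor SREBP2 when sterols in the endoplasmic reticulum are low. INSIG proteins hold SREBP and its escort SCAP in that membrane when sterols are plentiful. Macrophages take up large amounts of lipid from dying cells and lipoproteins and export the surplus through the transporters ABCA1 and ABCG1, whose genes are induced by the oxysterol-activated nuclear receptors LXR alpha and LXR beta. In a macrophage that fills with cholesterol, synthesis genes and efflux genes are known to move in opposite directions, and for that reason both arms were set side by side here.

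The start regions of the genes carry letters known from this control, and the RefSeq promoter table held 5 of the 8 genes, Hmgcs1, Idi1, Lss, Insig1 and Abca1. The stretches printed here were chosen because they hold the matches. They are on build GRCm38.p6, read 5′ to 3′ on the strand of the gene, and capitals mark the matches. Searches ran on both strands over the 300 bases around each start (250 before and 50 after). They covered the SREBP element letters TCACNCCAC and the CCAAT letters bound by the SREBP partner NF-Y. For LXR they covered 5 letters from each of its paired half-sites, GGTNA and GGTCA. The 5 bases between them were counted between these shortened letters, not between full half-sites. Hmgcs1 is shown at chr13:119690171-119690330 (plus strand), Idi1 at chr13:8885526-8885605 (plus), Lss at chr10:76531505-76531584 (plus), Insig1 at chr5:28071162-28071241 (plus) and Abca1 at chr4:53159926-53160005 (minus).
Hmgcs1: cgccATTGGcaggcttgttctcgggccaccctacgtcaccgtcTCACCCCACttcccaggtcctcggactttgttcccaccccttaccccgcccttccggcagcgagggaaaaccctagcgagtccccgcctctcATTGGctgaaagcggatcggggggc
Idi1: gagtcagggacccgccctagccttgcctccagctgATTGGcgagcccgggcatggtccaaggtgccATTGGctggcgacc
Lss: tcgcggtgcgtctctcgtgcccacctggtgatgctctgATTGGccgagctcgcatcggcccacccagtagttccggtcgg
Insig1: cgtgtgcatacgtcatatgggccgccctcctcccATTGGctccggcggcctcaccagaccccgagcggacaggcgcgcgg
Abca1: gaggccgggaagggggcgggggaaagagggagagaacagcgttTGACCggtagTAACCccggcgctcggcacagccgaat

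Of these 5 genes, Hmgcs1 alone held the SREBP element letters, which occur in 1.24% of the 32851 promoters of the table. CCAAT letters, all on the strand opposite to the gene, were found in the 4 genes of synthesis and sterol sensing and not in Abca1, whereas 37.4% of all promoters held them. Abca1 alone held the paired LXR letters, present in 0.207% of all promoters. A match describes the letters in the window and says nothing of whether a factor was bound in these cells. The lack of a match does not show that a gene lacks such elements, since only the stated letters and window were searched.

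The libraries held 201697 to 309617 molecules each, counted by molecular barcode, and in the smallest a count of 0 still allowed a share of up to 0.00149% (3 molecules, counting error only). Values below are normalised molecules, that is, counts divided by a DESeq2 size factor. Macrophage markers were present in every library, at 0.803% to 1.18% of molecules in DMSO and 0.968% to 1.13% in picrotoxin libraries. The markers of neutrophils, dendritic cells, B cells, T and NK cells and epithelial or MC38 cells summed to at most 10, 4, 3, 22 and 21 molecules in any library, with S100a9, Ly6g, Flt3, Cd3e, Cd8a, Cd79a and Epcam at 0 throughout. Fibroblast and matrix markers were uneven: the 12 genes took 0.0878% to 0.496% of molecules in DMSO and 0.123% to 0.232% in picrotoxin libraries, and without Fn1, which macrophages also make, 0.292% in DMSO replicate 5 and 0.0926% in DMSO replicate 3 against at most 0.0472% in the other 10 libraries. Where leaving out DMSO replicates 3 and 5 moved the value of one of the 8 genes or of a list by over 1.5 times, the value without them is given beside it. In sorted bulk samples, fewer cells of a type and less RNA per cell cannot be told apart.

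None of the 8 genes differed between picrotoxin and DMSO beyond the spread between libraries. By the adjusted p of edgeR, 0 of 8 passed, where 0.0522% of the 9580 tested genes did. At an unadjusted p under 0.05, 0 of 8 passed in edgeR against 7.77% of all genes, and 0 of 8 passed in DESeq2 against 3.82%. In 0 of 8 were the libraries of the 2 groups fully apart, as they were in 0.386% of all genes. Of the 8 log2 fold changes, 5 were below 0 and 3 above, with a median of -0.12 beside -0.01 over all tested genes, and among all tested genes 50.8% were below 0. The median over the 8 lay between -0.20 and -0.04 when single libraries were left out, and at 0.13 in replicates 3 to 6 alone. The plot of normalised molecules by library shows the overlap for each gene.

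**Figure D1:**
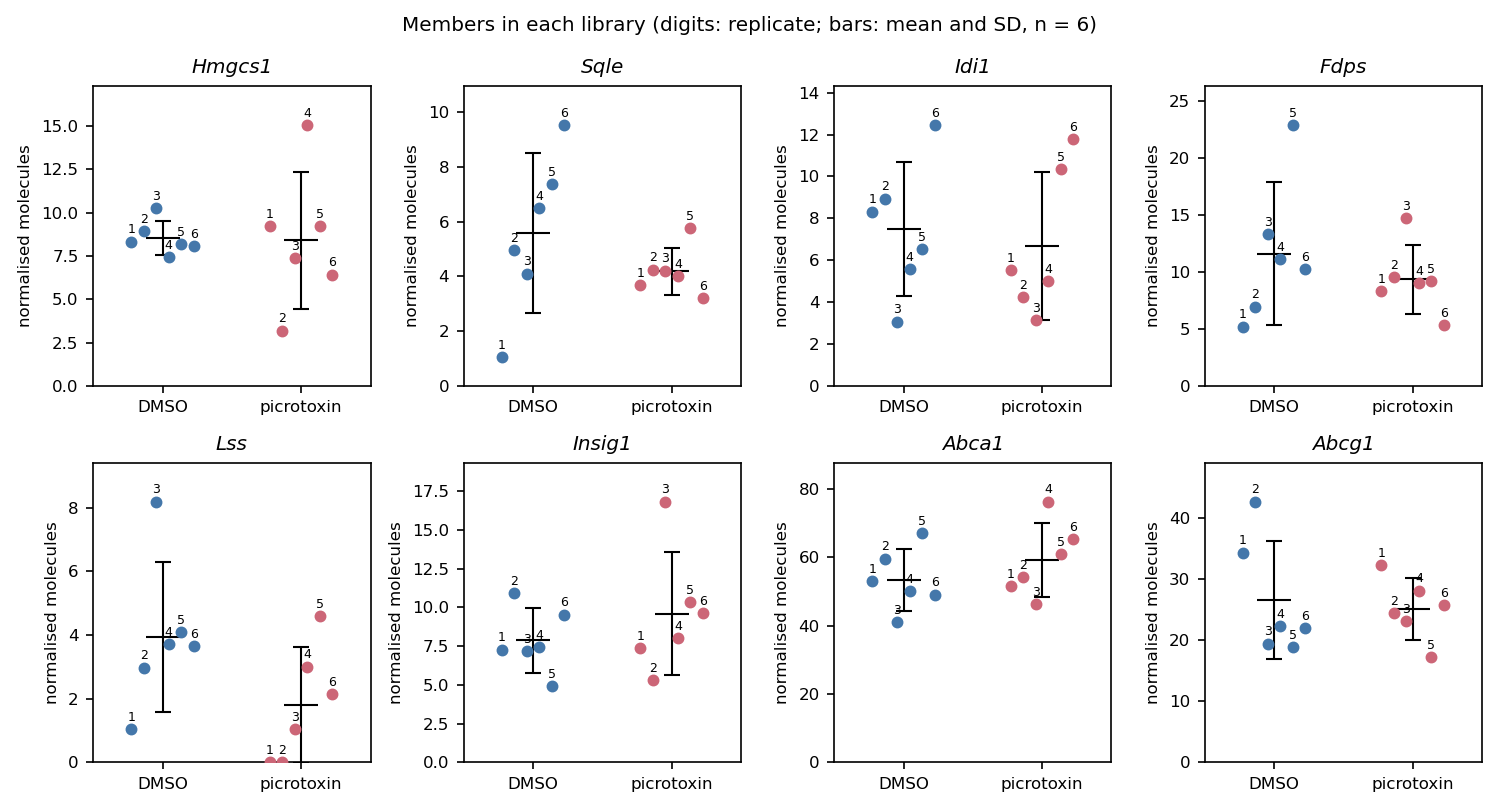
Normalised molecules (vertical axis, linear from 0) of the 8 genes in 6 DMSO libraries (blue) and 6 picrotoxin libraries (red). Digits give the replicate number, and black bars the group mean and SD, cut off at 0 for Lss. The groups overlap in all 8 panels, and the highest Fdps value is the 22.9 of DMSO replicate 5.

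Hmgcs1 encodes the cytosolic HMG-CoA synthase, an early enzyme of the mevalonate pathway (chr13:119690379-119708260, plus strand, GRCm38). In DMSO libraries it stood at 7.42, 8.25 and 10.2 normalised molecules (lowest, median and highest of 6), and in picrotoxin libraries at 3.19, 8.28 and 15.0. The picrotoxin range enclosed the whole DMSO range, with replicate 2 lowest and replicate 4 highest. Between groups the log2 fold change came to 0.01 (SE 0.29, 95% interval -0.57 to 0.59, adjusted p = 0.9999 in edgeR). Without picrotoxin replicate 4 it was -0.24, and without DMSO replicates 3 and 5 it was 0.05. Its within-group chi-square per degree of freedom, taken over both groups together, was 0.948, near what counting alone gives. The groups were not alike in this, with an SD of 0.972 in DMSO and 3.94 in picrotoxin libraries. Its gene overlaps the antisense gene Gm48342 over a shared segment of 462 bases. The counting was not stated to use strand, and if it did not, reads of that segment cannot be told apart.

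Idi1 encodes isopentenyl diphosphate isomerase, which interconverts the isoprene building blocks of the pathway (chr13:8885501-8892451, plus strand). Its levels were 3.07, 7.43 and 12.45 normalised molecules in DMSO and 3.15, 5.27 and 11.8 in picrotoxin libraries. Both groups spanned nearly the same range, from DMSO replicate 3 to DMSO replicate 6. For picrotoxin against DMSO the estimate was a log2 fold change of -0.20 (SE 0.34, 95% interval -0.90 to 0.49, adjusted p = 0.942 in edgeR). Without DMSO replicates 3 and 5 this became -0.45, without DMSO replicate 6 it became 0.03, and over single libraries left out it ran from -0.44 to 0.03. A stretch of 684 bases of Idi1 recurs at 100% identity in the processed pseudogene Gm13502, and 3 other genes in all hold such stretches, so its count is uncertain.

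Fdps encodes farnesyl diphosphate synthase, which supplies both the sterol branch and the lipids that anchor small GTPases (chr3:89093588-89101959, minus strand). It stood at 5.20, 10.7 and 22.9 normalised molecules in DMSO and at 5.36, 9.12 and 14.7 in picrotoxin libraries. DMSO replicate 5 was the highest of all 12 libraries, picrotoxin replicate 3 came next and DMSO replicate 3 after it, and the groups overlapped. A log2 fold change of -0.33 resulted (SE 0.30, 95% interval -0.93 to 0.27, adjusted p = 0.857 in edgeR). The mean of DMSO replicates 3 and 5, the libraries rich in matrix transcripts, was 18.1 against 8.38 in the other 4 DMSO libraries. The log2 fold change was -0.0096 without DMSO replicate 5 alone and -0.30 without DMSO replicate 3 alone. Leaving both out turned it to 0.12, and a score of the matrix markers as a covariate turned it to 0.16. The part of the matrix transcripts in this difference was not tested further. A stretch of 1062 bases of Fdps recurs at 98.87% identity in the pseudogene Gm3571, and 3 other genes in all hold such stretches, so its count is uncertain as well.

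Sqle encodes squalene epoxidase, the first oxygen-requiring and a rate-controlling step of the sterol branch (chr15:59315077-59331192, plus strand). Its levels were 1.04, 5.73 and 9.52 normalised molecules in DMSO and 3.21, 4.11 and 5.75 in picrotoxin libraries. Here the DMSO range enclosed the picrotoxin range, from a single molecule in DMSO replicate 1 to 13 molecules in DMSO replicate 6. Its log2 fold change came to -0.47 (SE 0.38, 95% interval -1.24 to 0.30, adjusted p = 0.829 in edgeR), and 5 of 6 picrotoxin libraries lay below the DMSO mean. Over single libraries left out the value ran from -0.66 without DMSO replicate 1 to -0.23 without DMSO replicate 6, and with the matrix covariate it was -0.23. No other annotated transcript shares a segment of 100 or more bases with Sqle at 97% identity or above.

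Lss encodes lanosterol synthase, which folds oxidised squalene into the first sterol (chr10:76531588-76557138, plus strand). It was counted at 1.04, 3.69 and 8.19 normalised molecules in DMSO and at 0, 1.60 and 4.60 in picrotoxin libraries. Picrotoxin replicates 1 and 2 held no Lss molecule, whereas every DMSO library held at least 1, and DMSO replicate 3 was the highest. The log2 fold change of -1.11 was the lowest of the 8 genes (SE 0.57, 95% interval -2.28 to 0.05, unadjusted p = 0.0610, adjusted p = 0.681 in edgeR). It rests on 36 molecules in all 12 libraries. The unadjusted p fell under 0.05 without DMSO replicate 1 (log2 fold change -1.29, unadjusted p = 0.0287), without picrotoxin replicate 4 (-1.34, unadjusted p = 0.0430) or without picrotoxin replicate 5 (-1.58, unadjusted p = 0.0188), and stood at 0.282 without DMSO replicates 3 and 5 (-0.72). Lss overlaps the antisense gene 4930483K19Rik, with a shared segment of 152 bases.

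Insig1 encodes the sterol-dependent retention protein of the endoplasmic reticulum and is itself a known SREBP target (chr5:28071363-28078662, plus strand). Its levels were 4.91, 7.35 and 10.9 normalised molecules in DMSO and 5.31, 8.84 and 16.8 in picrotoxin libraries. Picrotoxin replicate 3 stood above all other libraries, and the remaining 5 lay within the DMSO range. Between groups the log2 fold change came to 0.28 (SE 0.29, 95% interval -0.30 to 0.87, adjusted p = 0.878 in edgeR). When single libraries were left out, the value lay between 0.05, without picrotoxin replicate 3, and 0.40, and it was 0.16 without DMSO replicate 5. It was 0.11 without DMSO replicates 3 and 5 and 0.07 with the matrix covariate. In replicates 3 to 6 alone it was 0.63 (unadjusted p = 0.072 in edgeR). The pseudogene Gm37784 holds 189 bases of Insig1 at 98.9% identity.

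Abca1 encodes the transporter that loads cholesterol and phospholipid onto lipid-poor apolipoprotein A-I (chr4:53030787-53159895, minus strand). With 695 molecules in all, it had the smallest standard error of the 8. It stood at 41.0, 51.6 and 67.1 normalised molecules in DMSO and at 46.3, 57.6 and 76.2 in picrotoxin libraries. Picrotoxin replicate 4 was the highest and DMSO replicate 3 the lowest, and the ranges overlapped over most of their length. On the log2 scale the difference was 0.16 (SE 0.14, adjusted p = 0.861 in edgeR). Its 95% interval of -0.13 to 0.44 corresponds to 0.913 to 1.36 times the DMSO level. The log2 value was 0.067 without picrotoxin replicate 4 and 0.09 without DMSO replicate 3, and at most 0.23 over single libraries left out.

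Abcg1 encodes the transporter that passes cholesterol on to mature high-density lipoprotein (chr17:31057675-31117988, plus strand). It stood at 18.8, 22.1 and 42.7 normalised molecules in DMSO and at 17.3, 25.1 and 32.3 in picrotoxin libraries. DMSO replicates 1 and 2 and picrotoxin replicate 1 were the 3 highest, while the other 9 libraries lay at 28.1 or below. For picrotoxin against DMSO the estimate was a log2 fold change of -0.04 (SE 0.20, 95% interval -0.45 to 0.37, adjusted p = 0.986 in edgeR). Over single libraries left out the lowest value was -0.13 and the highest 0.15. Without DMSO replicates 3 and 5 it was -0.23, and with the matrix covariate -0.26. Libraries numbered 1 and 2 averaged 38.5 against 20.6 for those numbered 3 to 6 in DMSO, and 28.3 against 23.6 with picrotoxin. In replicates 3 to 6 alone the log2 fold change was 0.22 (unadjusted p = 0.335), and the labels give no batch for these numbers.

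The other genes of the pathway were then read in 5 lists that hold 62 genes with the 8, all found in the table and 58 of them tested. At an unadjusted p under 0.05, 4 of 58 genes passed in edgeR, 2 higher and 2 lower with picrotoxin, beside the 7.77% of all tested genes. The split was 0 higher and 3 lower without picrotoxin replicate 4, and 4 higher and 0 lower with the matrix covariate. Among all genes, 316 were higher and 384 lower of 9584 without picrotoxin replicate 4. With the matrix covariate 286 were higher and 280 lower of 9580. In DESeq2 3 of 58 passed the unadjusted threshold, beside 3.82%. By the adjusted p of edgeR 0 of 58 passed, and the lowest value was 0.410. Across the 58 genes 27 log2 fold changes were above 0 and 31 below, with a median of -0.03. Among all tested genes 50.8% were below 0, a share to set beside the counts of each list. The plot of intervals shows that most of the intervals span 0 and that the genes counted least have the widest ones.

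**Figure D2:**
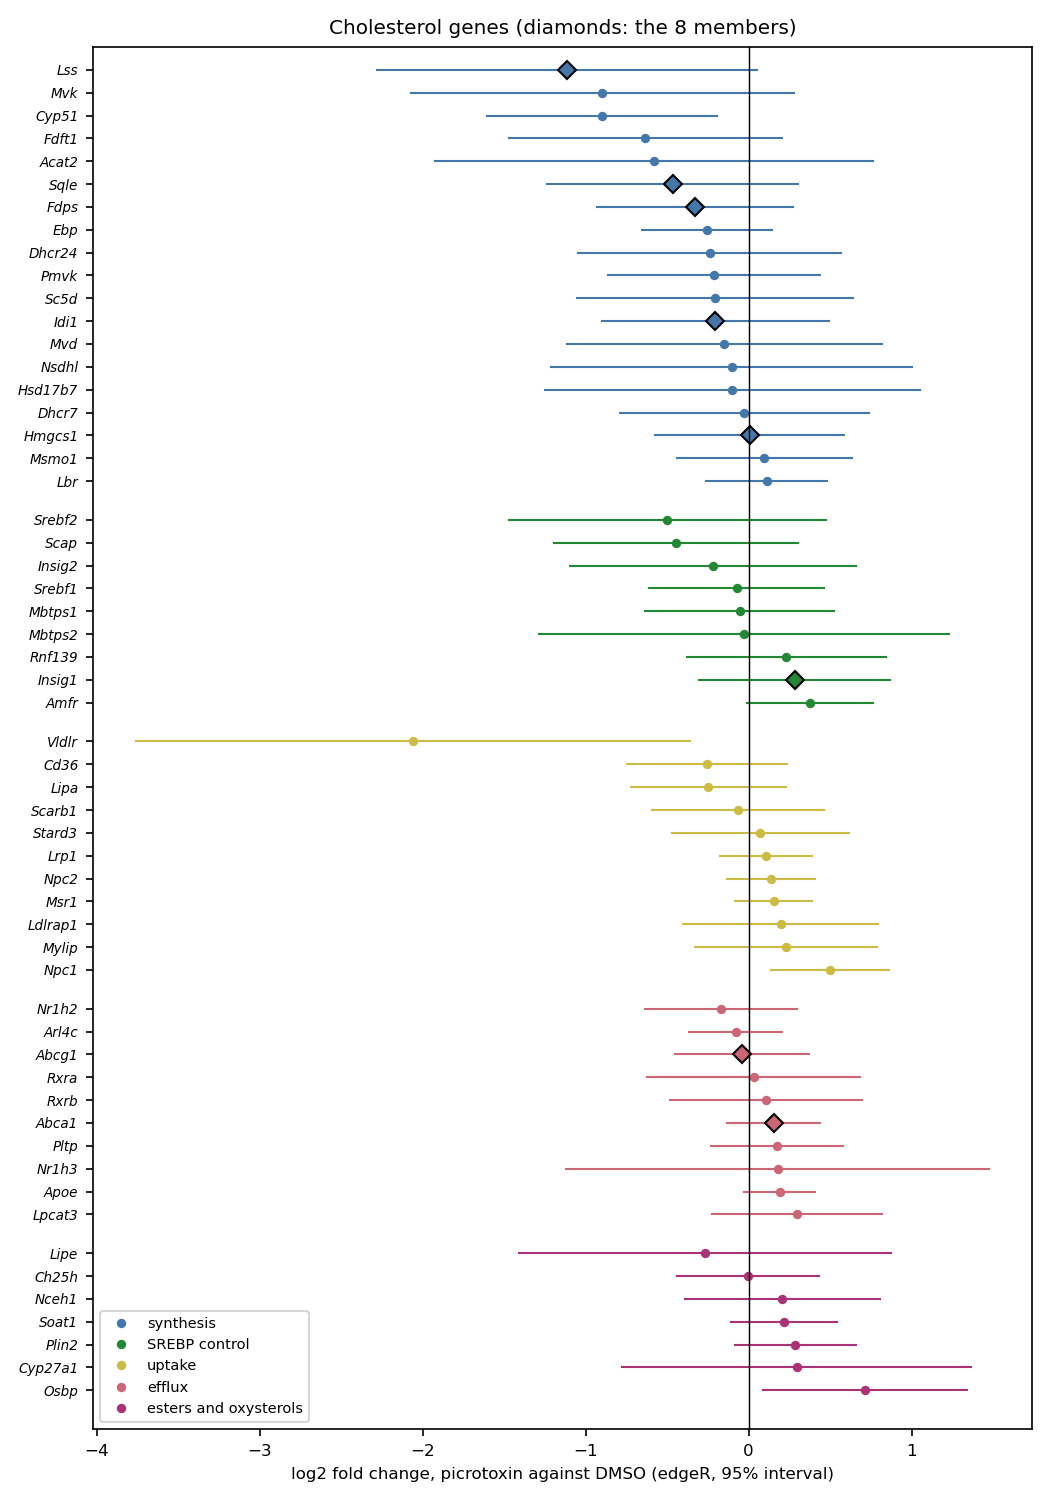
Log2 fold change of picrotoxin against DMSO (horizontal axis) with its 95% interval from edgeR for 56 of the 58 tested genes of 5 cholesterol lists, coloured by list and ordered by value within each. Diamonds mark the 8 genes named at the start. The intervals of 4 genes exclude 0, those of Cyp51 and Vldlr below it and those of Npc1 and Osbp above it.

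In the list of synthesis enzymes, 20 of 21 genes were tested, and 16 of the 20 log2 fold changes were below 0. Of all tested genes 50.8% were below 0, and 52.1% of those with a mean under 25 normalised molecules. The median of the list was -0.21, beside -0.01 over all tested genes. A single gene of the list, Cyp51, had an unadjusted p under 0.05. The median stayed between -0.29 and -0.13 when single libraries were left out, with 13 to 17 of 20 genes below 0. Without DMSO replicates 3 and 5, 12 of 20 were below 0 with a median of -0.14, and once the matrix score entered as a covariate 13 of 20 were, with a median of -0.10. Tm7sf2, a sterol reductase with 7 molecules in all, was not tested.

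Cyp51 encodes the demethylase that acts on lanosterol, the step after Lss (chr5:4081145-4104746, minus strand). It stood at 4.16, 11.3 and 20.5 normalised molecules in DMSO and at 3.69, 4.44 and 12.04 in picrotoxin libraries. DMSO replicates 3 to 6 lay at 10.2 or above, whereas DMSO replicates 1 and 2 lay among the picrotoxin libraries, of which replicate 4 was the highest. On the log2 scale the difference was -0.90 (SE 0.35, unadjusted p = 0.0144, adjusted p = 0.493 in edgeR). The log2 fold change was -0.60 without DMSO replicate 6 (unadjusted p = 0.103) and -0.68 with a matrix score covariate (unadjusted p = 0.0808). In replicates 3 to 6 alone it was -1.15 (unadjusted p = 0.00233, adjusted p = 0.183 in edgeR). Cyp51 shares a segment of 166 bases with Akap9 on the opposite strand, so its count is uncertain.

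In the list of SREBP control, all 9 genes were tested, 3 were above 0 and 6 below, and the median log2 fold change was -0.06. The median ran from -0.16 to 0.04 over single libraries left out, above 0 without DMSO replicate 1 (0.04) or picrotoxin replicate 5 (0.038), and was -0.15 without DMSO replicates 3 and 5 and -0.19 with the matrix covariate. Srebf2, which encodes SREBP2, averaged 4.36 ± 1.80 and 3.20 ± 2.51 normalised molecules (SD, 6 DMSO and 6 picrotoxin libraries), and its log2 fold change was -0.50 (95% interval -1.47 to 0.47, adjusted p = 0.869 in edgeR). Picrotoxin replicate 1 held no Srebf2 molecule, and picrotoxin replicates 1 and 2 were the lowest of all 12 libraries. Srebf1, the isoform gene best known for fatty acid synthesis, averaged 8.55 ± 1.35 and 8.04 ± 1.97, for a log2 fold change of -0.07 (adjusted p = 0.980 in edgeR). With these transcript levels nothing is measured of the cleavage that activates either protein.

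In the list of uptake and lysosomal handling, 12 of 13 genes were tested, 8 were above 0 and 4 below, and the median log2 fold change was 0.09. Over single libraries left out the median ran from 0.033, without picrotoxin replicate 4, to 0.12. The scavenger receptors Msr1 and Cd36 had log2 fold changes of 0.15 and -0.25 (adjusted p = 0.815 and 0.869 in edgeR). They were named after their values were seen.

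Npc1 encodes the membrane protein that carries cholesterol out of the lysosome. It stood at 18.6, 21.1 and 21.97 normalised molecules in DMSO and at 22.08, 27.5 and 42.1 in picrotoxin libraries. In normalised molecules every picrotoxin library lay above every DMSO library, if only just, since DMSO replicate 6 and picrotoxin replicate 3 were neighbours. As a share of all molecules of a library the groups overlapped, with DMSO replicate 6 at 0.00969% and picrotoxin replicate 3 at 0.00924%. Of the 58 list genes only Npc1 had groups of normalised molecules fully apart, beside 0.386% of all tested genes. On the log2 scale the difference was 0.50 (SE 0.18, unadjusted p = 0.00852, adjusted p = 0.410 in edgeR). Without picrotoxin replicate 4 it was 0.36 (unadjusted p = 0.0542), while without DMSO replicates 3 and 5 it was 0.48 (unadjusted p = 0.0237). Npc1 shares a segment of 323 bases with Rmc1, annotated on the opposite strand. If the counting did not use strand, reads of that segment cannot be told apart.

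Vldlr encodes a receptor for triglyceride-rich lipoproteins (chr19:27216484-27254231, plus strand). It stood at 0, 1.60 and 6.15 normalised molecules in DMSO and at 0, 0 and 2.01 in picrotoxin libraries, with 20 molecules in all. DMSO replicates 3 and 5, the libraries rich in matrix transcripts, held 6 molecules each of the 17 in DMSO, and 4 of 6 picrotoxin libraries held none. On the log2 scale the difference was -2.06 (SE 0.84, unadjusted p = 0.0192, adjusted p = 0.519 in edgeR). The log2 fold change was -1.68 without DMSO replicate 3 (unadjusted p = 0.0684), -1.75 without DMSO replicate 5 (unadjusted p = 0.0605) and -1.14 with a matrix score covariate (unadjusted p = 0.230). Without both libraries Vldlr no longer reached the mean of 1 normalised molecule needed for testing.

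In the efflux list, all 10 genes were tested, 7 were above 0 and 3 below, and the median log2 fold change was 0.13. Apoe, the apolipoprotein that macrophages secrete with exported cholesterol, averaged 728 ± 142 normalised molecules with DMSO and 825 ± 123 with picrotoxin (SD, 6 libraries each). The log2 fold change of 0.19 had a 95% interval of -0.03 to 0.41 (adjusted p = 0.732 in edgeR). Nr1h3, which encodes LXR alpha, averaged 1.73 ± 1.32 and 1.86 ± 0.950, and its log2 fold change of 0.18 had a 95% interval of -1.12 to 1.48, which holds both a rise and a fall by 1 on the log2 scale (adjusted p = 0.980 in edgeR). The median over the list stayed between 0.09 and 0.17 when single libraries were left out, with none of its genes past an unadjusted p of 0.05 with all libraries.

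In the list of cholesterol esters and oxysterols, 7 of 9 genes were tested, 5 were above 0 and 2 below, and the median log2 fold change was 0.22. This median was 0.033 without DMSO replicates 3 and 5, and ran from 0.12 without DMSO replicate 3 to 0.36 without DMSO replicate 1 over single libraries left out. Soat2 and the oxysterol hydroxylase Cyp7b1 were not tested, at 13 and 0 molecules. Osbp, which encodes the oxysterol-binding protein that moves cholesterol from the endoplasmic reticulum to the Golgi, was the only one with an unadjusted p under 0.05 (chr19:11965941-11994112, plus strand). It stood at 3.71, 6.27 and 8.19 normalised molecules in DMSO and at 3.69, 10.8 and 13.8 in picrotoxin libraries. Picrotoxin replicates 3 to 6 lay above every DMSO library, and picrotoxin replicates 1 and 2 lay among or below them. On the log2 scale the difference was 0.71 (SE 0.31, unadjusted p = 0.0269, adjusted p = 0.571 in edgeR, unadjusted p = 0.0680 in DESeq2). The unadjusted p in edgeR was between 0.0539 and 0.0755 when DMSO replicate 1 or 4, or picrotoxin replicate 3, 4 or 5, was left out, with log2 fold changes of 0.60 to 0.65. Without DMSO replicates 3 and 5 the log2 fold change was 0.91 (unadjusted p = 0.0151).

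**Figure D3:**
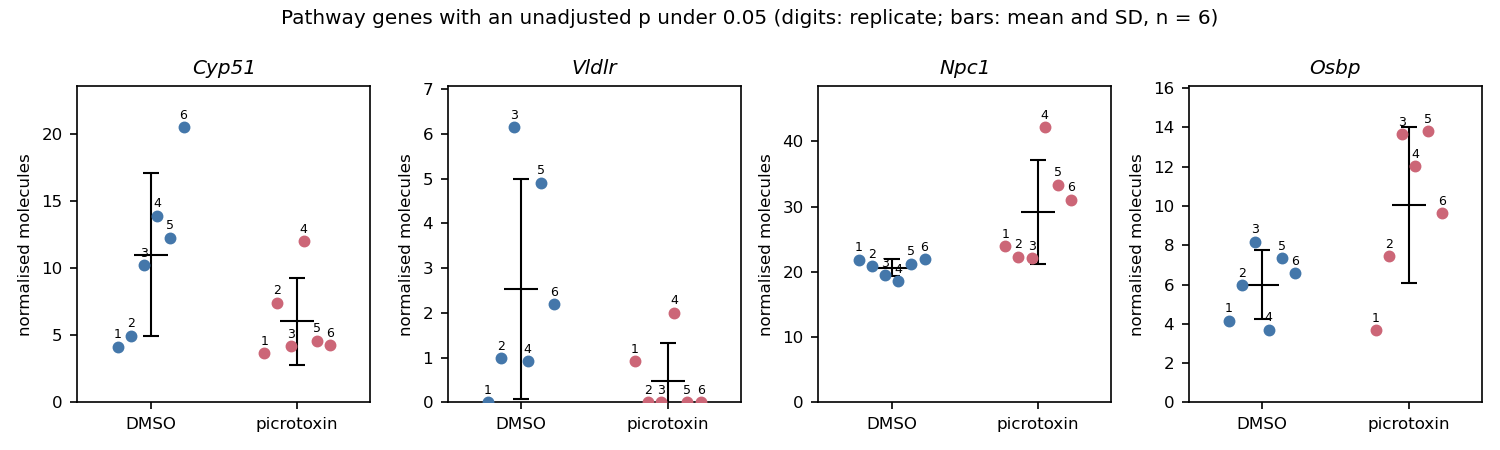
Normalised molecules (vertical axis, linear from 0) in each library for Cyp51, Vldlr, Npc1 and Osbp, the 4 list genes with an unadjusted p under 0.05 in edgeR, in DMSO (blue) and picrotoxin (red) libraries. Digits give the replicate number and black bars the mean and SD (n = 6). On this scale Npc1 alone shows groups that do not overlap. The highest Vldlr values, 6.15 and 4.91, are those of DMSO replicates 3 and 5.

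Whether the 8 genes varied together from library to library was asked with the log2 CPM (TMM-scaled counts) of each pair over the 12 libraries. Of the 28 pairs, 20 had a positive Pearson r, the median r was 0.06, and 0 had an adjusted p under 0.05, over 28 permutation tests. Among the 15 pairs of the 6 synthesis and sensor genes the median r was 0.12. Sqle and Fdps had the highest r, 0.60 (permutation p = 0.0406, adjusted p = 0.543), with a Spearman rho of 0.64 (permutation p = 0.0305, adjusted p = 0.251), and r was 0.61 without the 2 libraries farthest from the median of Sqle (permutation p = 0.0590). Fdps and Abcg1 had the lowest, -0.65 (permutation p = 0.0210, adjusted p = 0.543), with a rho of -0.75 (permutation p = 0.00703, adjusted p = 0.111), and -0.54 without the 2 libraries farthest from the median of Fdps (permutation p = 0.106). Abca1 and Abcg1, targets of the same receptors, had an r of 0.16 (permutation p = 0.610). With the group means removed the median r over all pairs was 0.12. The within-group chi-square per degree of freedom ran from 0.887 for Sqle to 2.36 for Abcg1, where counting error alone gives about 1, so a low r is no measure of how far 2 genes are regulated apart.

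**Figure D4:**
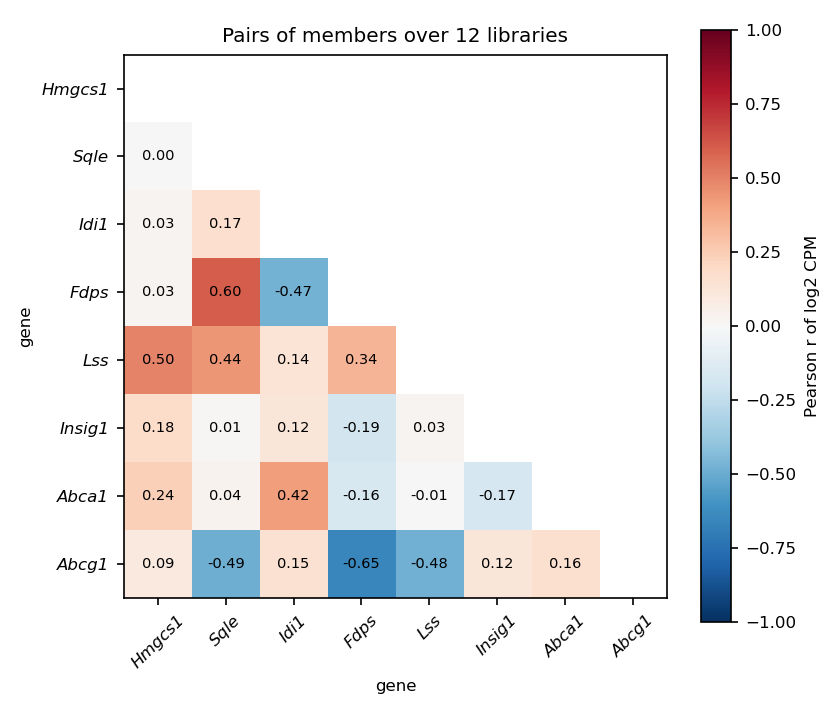
Pearson r of log2 CPM over 12 libraries for each of the 28 pairs of the 8 genes (colour and printed value, blue negative, red positive). The values run from -0.65 for Fdps and Abcg1 to 0.60 for Sqle and Fdps, and none had an adjusted p under 0.05.

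Finally, other genes were ranked by their likeness to the 2 arms, as a description. Among 1986 genes with a mean of at least 20 normalised molecules, Rwdd1 (Pearson r 0.88), Selenos (0.87), Tardbp (0.77), Lsm7 (0.76) and Cacybp (0.73) came closest, over 12 libraries, to the mean profile of Hmgcs1, Sqle, Idi1, Fdps, Lss and Insig1. That profile had an r of 0.49 with the matrix score of the libraries, and the 5 genes had between 0.48 and 0.74. Closest to the mean profile of Abca1 and Abcg1 were Grk2 (0.85), Ptprj (0.84), Ndufa1 (0.83), Snx1 (0.80) and H3f3a (0.79), and that profile had an r of -0.25 with the matrix score. The libraries differ in depth and in their matrix transcripts, and high values are found by ranking so many genes over so few libraries.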

How the data were processed

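The counts deposited by the authors are whole numbers of molecules for each gene symbol, made by barcoded oligo-dT priming of fragmented RNA, mapping to mm10 with STAR and the refFlat annotation. The handling of multiply mapped reads and of strand was not given in the sources used here. All 12 columns matched a labelled library, and the 30 pairs of libraries within groups differed by more than counting noise (chi-square per degree of freedom 1.23 to 3.15), so none was a copy.

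Genes with a mean above 1 normalised molecule were tested with the quasi-likelihood test of edgeR 4.0.16 (TMM, group as the only term, Benjamini-Hochberg adjustment over 9580 genes). Standard errors and 95% intervals were derived from the F statistic. DESeq2 1.42.0 (the Wald rule of the study), limma-voom 3.58.1, other scalings and filters, the replicate block, a split of the replicate numbers, a matrix covariate and each library left out were alternatives. Normalised molecules were counts divided by DESeq2 size factors.

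The members, lists, tests and alternatives were chosen with earlier results of these data known. Named genes were the 8, every list gene with an unadjusted p under 0.05 and Srebf2, Srebf1, Nr1h3, Apoe and 2 genes that are not reported here, and for likeness the 5 closest genes to each arm. Positions are from GENCODE M21 (GRCm38, the same assembly as mm10). Shared segments of at least 100 bases at 97% identity were found by aligning transcripts.

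The fit was tested on counts simulated from the mean levels and dispersions of these libraries, and genes were called at an adjusted p under 0.05. At a mean under 50 molecules, 16 of 53 genes simulated with a log2 fold change of 1 in size were called. For a size of 2 it was 42 of 58. Of 9380 genes simulated without a change, 8 were called. A change of such size in a gene at low counts could therefore be missed.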

Additional observations from a re-analysis of the deposited data

Results flagged for a closer look

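Nr1h3, which encodes LXR alpha, was at 0 normalised molecules in picrotoxin replicate 5. The other 5 picrotoxin libraries lay between 2.01 and 2.76, a gap that was flagged by the outlier check. These values stand for 2 or 3 molecules each, and DMSO replicate 5 also held no Nr1h3 molecule. At such counts the check cannot tell an outlying library from counting error. Of 36 such checks over 18 genes and both groups this was 1 flag, where chance alone gives about 1.8.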

How the results depend on the processing

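The number of genes past an adjusted p of 0.05 was 5 with all libraries. It was 2 in DESeq2, 3 in limma-voom, 13 with library totals alone, 81 with every gene of at least 1 molecule, 27 with the split of replicate numbers as a term, 49 in replicates 3 to 6 alone, 1 without DMSO replicates 3 and 5, and 0 with a covariate for the matrix score, where edgeR still gave 286 genes higher and 280 lower at an unadjusted p under 0.05. Leaving out single libraries gave 0 to 25, the 0 for DMSO replicate 5 or 6 and for picrotoxin replicate 2, 3 or 4 (607 to 700 genes at an unadjusted p under 0.05), the 25 for DMSO replicate 1. Of the 8 genes, the number past an unadjusted p of 0.05 was 1, Lss, in limma-voom and with every gene of at least 1 molecule, 0 to 1 when libraries were left out, and 0 otherwise. Of the list genes, 4 passed at first, 1 of 23 tested with a mean above 10, and 3 to 6 when libraries were left out. Among all genes, those past the same threshold were 744 of 9580, 396 of 3741, and 607 to 831.

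Signs turned in 4 of the 8 genes. Hmgcs1 went from 0.0084 to -0.0078 in DESeq2, -0.094 in limma-voom, -0.0023 with DESeq2 size factors, -0.048 with library totals alone and -0.0074 with every gene of at least 1 molecule, and lay between -0.24 and 0.17 when libraries were left out. Abcg1 was 0.018 in limma-voom, 0.22 in replicates 3 to 6 alone, and -0.13 to 0.15 when libraries were left out. Idi1 was 0.061 in replicates 3 to 6 alone and -0.44 to 0.034 when libraries were left out. Fdps was 0.16 with the matrix covariate and 0.12 without DMSO replicates 3 and 5. Without a turn of sign, replicates 3 to 6 alone gave -0.56 for Fdps, -0.69 for Sqle, -0.79 for Lss, 0.63 for Insig1, 0.28 for Abca1 and 0.21 for Hmgcs1. The cause of these shifts was not tested.

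With the replicate number as a block, 43 genes passed the adjusted p, 0 of the 8 and 5 list genes the unadjusted one, and Hmgcs1 was -0.014. Deviations of same-numbered libraries from their group means correlated above 0.1 in 1 of 6 pairs (correlations of -0.0048 to 0.126). The mean correlation was 0.0534 for same-numbered libraries and -0.0108 for the others. The numbers were not taken as a pairing, and 2 of 6 DMSO libraries matched their own number best. Among the genes named with values, depth was lowest for Lss, Vldlr, Nr1h3 and Srebf2, at 36, 20, 22 and 48 molecules in all.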
